A study of Drosophila melanogaster with 3 samples.

Results

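The genes described here are the Rab GTPase and Vps genes of Drosophila melanogaster, chosen by their symbols alone: a symbol that starts with Rab and a number, RabX and a number, or Vps and a number. Of 13945 protein-coding genes, 63 matched, namely 33 Rab GTPase genes, 27 Vps genes and 3 genes for regulators of Rab3 (Rab3-GAP, Rab3GAP1 and Rab3-GEF), which are given apart. For each gene, the question was whether the tagged protein CG15601 was found within 500 bp of a transcription start site (TSS), how strong the peak was, and where it lay.

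Rab proteins are small GTPases that switch between a GTP-bound and a GDP-bound form and mark the membrane of each organelle, where they recruit tethers, motors and coats. Vps proteins were named from yeast mutants that missort proteins on the way to the vacuole. They form the ESCRT complexes that bud vesicles into endosomes, the HOPS and CORVET tethers that act with Rab7 and Rab5, the retromer and GARP complexes that return cargo to the Golgi, and the class III phosphatidylinositol 3-kinase. In the fly embryo these pathways serve cell formation, secretion and the turnover of signalling receptors.

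Chromatin was taken from whole embryos of mixed sex, 0 to 14 h old, of 1 transgenic line in which CG15601, known in the labels only by its gene number, carries GFP at its C-terminal end. DNA was recovered with an antibody against GFP and sequenced (ChIP-seq) in 3 biological replicates of that 1 group, and no group without the tag is among the samples. All replicates share the line and the tag, and in whole embryos a peak cannot be assigned to a cell type. Whether the embryos of each replicate were collected separately is not stated, so the spread between replicates may in part be technical. Positions are on the dm6 assembly.

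The authors deposited 1 peak list of 30000 peaks for each replicate, 1 of 30000 peaks from the replicates pooled, and 1 of 6458 peaks that passed an IDR threshold (irreproducible discovery rate, which asks whether a peak keeps its rank between replicates). The 6458 IDR peaks are the strongest 6458 of the pooled list. The strongest 6458 peaks of each replicate list were therefore used to see how each result varied over replicates. A peak's strength is the authors' signal value, which is not scaled between lists, so it is given as a rank within its list, with 1 the strongest. The lists hold no read counts, so the read depth is unknown.

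At the promoters of Rab and Vps genes, the IDR list placed a summit at 21 of 60 genes. They were 12 of the 33 Rab genes (36.4%, exact 95% binomial interval 20.4% to 54.9%) and 9 of the 27 Vps genes (33.3%, 16.5% to 54.0%), against 26.7% of all protein-coding genes. The intervals cover counting error over genes only. Of the 60 members, 30 had a divergent promoter, defined below, against 27.4% of all protein-coding genes. Divergent genes held a summit more often, so the 26.7% comes from genes of a different promoter layout. The gene for the early endosome GTPase Rab5 and the gene for the tether-complex protein Vps33B ranked above every other member in each replicate. Each group of Vps genes had at least 1 gene in the IDR list, while none of the 3 Vps13 lipid transfer genes and none of the 7 duplicated Rab genes of the Rab9D, Rab9F, RabX2 and RabX5 kind had a summit in any list. An empty promoter in all lists was found at 36.3% of all protein-coding genes.

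The sequence under 6 of these summits shows what the peaks of members look like at the level of DNA. The first pair are the strongest member peaks. Vps15, Rab30 and Rab6 are shown for the longest of the words described below, and Vps45 for a promoter shared head to head with a neighbour. Each stretch holds the IDR summit and up to 60 bp on either side, cut where an annotated exon begins, and is read 5′ to 3′ on the strand of the named gene. Sequence is from the RefSeq copy of genome release 6. Capitals mark any of 5 words found on either strand: TATCGATA (the DNA replication-related element, DRE, the site of the factor Dref), CGATA (the core recognised by the insulator protein BEAF-32, which lies within every DRE), GGTCACA (the core of the M1BP site), CACGTG (an E-box) and TATAAA. The stretch of Vps33B (chr3R:25473255-25473375, plus strand) and that of Vps15 (chr3R:9245873-9245993, minus strand) are intergenic, as are those of Rab30 (chr2L:7032607-7032720, minus strand), Rab6 (chr2L:12109117-12109189, minus strand) and Vps45 (chr3R:9563683-9563803, plus strand). The stretch of Rab5 (chr2L:2363693-2363813, minus strand) lies in an intron of the longer Rab5 transcripts, upstream of an internal start site.
Vps33B: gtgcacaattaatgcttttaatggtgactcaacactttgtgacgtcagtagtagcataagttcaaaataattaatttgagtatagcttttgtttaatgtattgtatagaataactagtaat
Rab5: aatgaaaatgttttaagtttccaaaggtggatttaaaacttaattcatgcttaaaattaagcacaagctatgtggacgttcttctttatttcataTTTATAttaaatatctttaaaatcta
Vps15: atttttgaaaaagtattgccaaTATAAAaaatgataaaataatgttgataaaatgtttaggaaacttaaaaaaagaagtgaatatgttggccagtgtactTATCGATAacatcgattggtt
Rab30: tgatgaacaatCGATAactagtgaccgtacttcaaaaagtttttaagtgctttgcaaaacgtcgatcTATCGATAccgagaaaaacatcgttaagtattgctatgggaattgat
Rab6: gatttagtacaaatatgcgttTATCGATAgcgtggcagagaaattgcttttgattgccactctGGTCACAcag
Vps45: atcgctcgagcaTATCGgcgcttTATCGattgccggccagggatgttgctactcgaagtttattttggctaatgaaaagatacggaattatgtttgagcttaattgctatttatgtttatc

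The Vps33B summit held none of the 5 words within the printed stretch and the Rab5 summit only a TATAAA word. The Rab30, Rab6 and Vps15 summits, which were picked for it, each held a complete DRE. Within 100 bp of the summit, Vps33B also had CGATA and Rab5 also had CACGTG. A match is a description of the letters and not evidence that a factor sits there.

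Vps33B, which encodes the Sec1/Munc18-type subunit of the CHEVI tether, held the strongest peak of any member, with rank 324 in the IDR list and ranks 278, 344 and 345 in replicates 1, 2 and 3. The authors' signal there was 375, 429.6 and 428 in the 3 replicate lists. The summit (chromosome 3R, 25473315) lay 175 bp upstream of the Vps33B TSS, between it and the start of Fur1, a proprotein convertase gene read on the opposite strand. Its rank was among the steadiest of the members, with the highest replicate rank 1.24 times the lowest.

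Rab5, the GTPase that directs fusion of early endosomes, held the second strongest member peak, with rank 500 in the IDR list and ranks 518, 473 and 564 in replicates 1, 2 and 3. The authors' signal was 267, 367 and 321. Rab5 has 6 annotated start sites, and this summit lay 249 bp upstream of the one at 2363504, inside the gene. A second IDR summit of rank 3763 lay 23 bp downstream of the outermost start at 2365273, which faces the start of Axud1 72 bp away. Rab5 was the only one of the 21 genes with more than 1 IDR summit at its start sites.

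**Figure D1:**
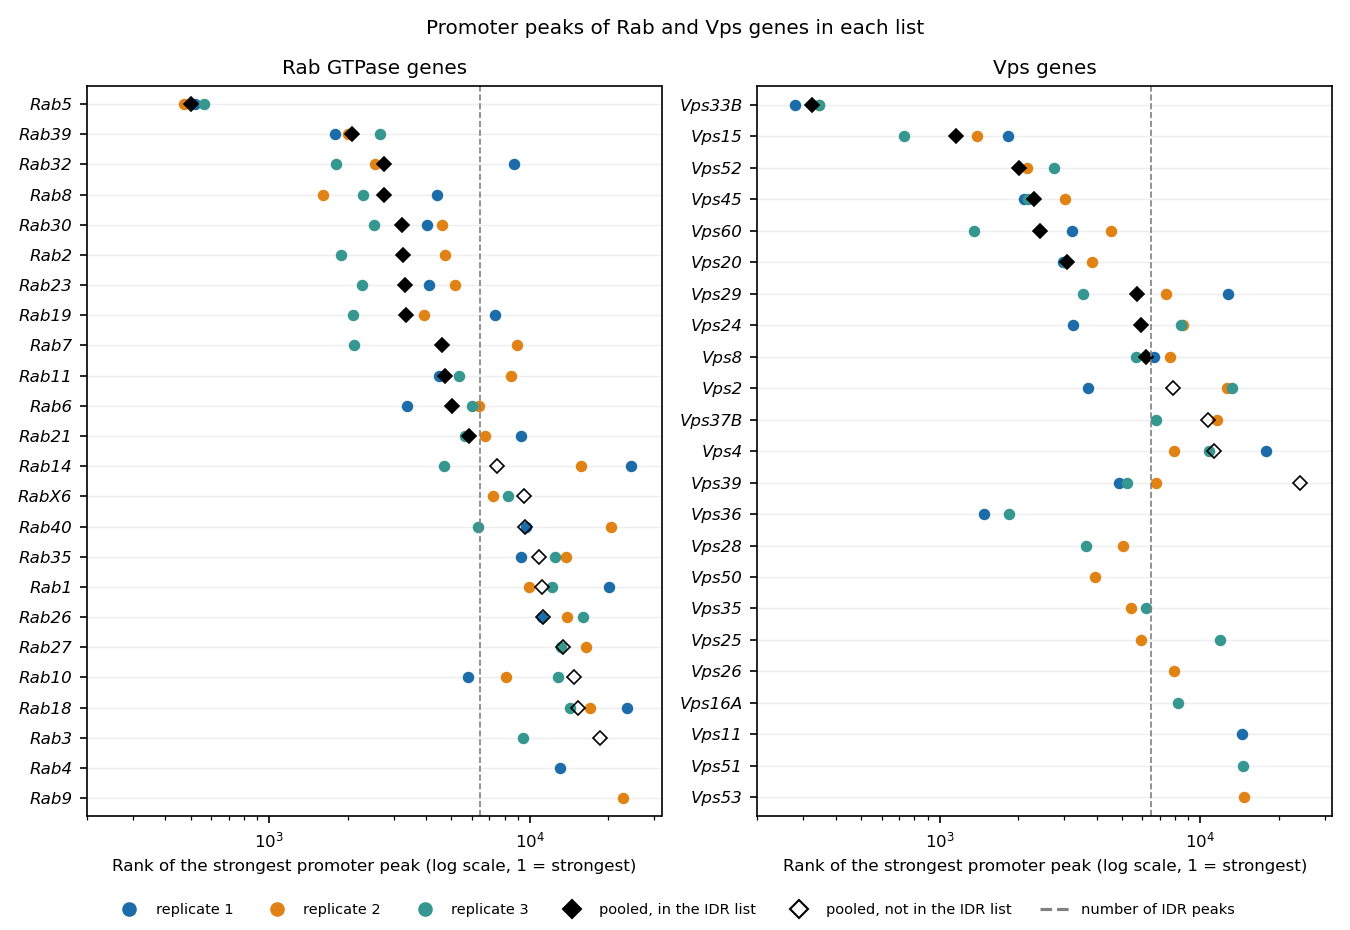
Rank of the strongest promoter peak (log axis, 1 = strongest) of every Rab (left) and Vps (right) gene with a summit in at least 1 list; coloured points are the 3 replicate lists, black diamonds the pooled list (filled where the peak is in the IDR list), and the dashed line marks rank 6458. Rab5 and Vps33B are leftmost, at ranks 278 to 564 in all replicates, and several Vps genes below the diamonds, such as Vps36, have replicate points and no pooled peak.

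Among the other Rab genes, strength was moderate and more variable between replicates. Rab39, a GTPase of late endosomes and lysosomes, had IDR rank 2077 and ranks 1791, 2004 and 2654 in the replicates. Rab8, which acts in secretion from the Golgi to the plasma membrane, had IDR rank 2757 and replicate ranks 4395, 1610 and 2292. Rab32, the gene of the eye pigment mutant lightoid, had IDR rank 2746 and ranks 8703, 2541 and 1800. Replicate 1 was the weakest of the 3 for Rab32, Rab8, Rab19 and Rab21 and had no summit at all at Rab2 and Rab7. Rab30 had IDR rank 3239 and replicate ranks 4015, 4618 and 2532. Rab23, known in flies for its part in planar cell polarity of the wing, had IDR rank 3330 and replicate ranks 4111, 5154 and 2267. These GTPases, like Rab39 and Rab8, lay within the strongest 6458 peaks of every replicate.

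The other 6 Rab genes of the IDR list had ranks between 3248 and 5846. Rab2, which acts between the endoplasmic reticulum and the Golgi, had IDR rank 3248 with ranks 4712 and 1894 in replicates 2 and 3. Rab19 had IDR rank 3341 and replicate ranks 7336, 3913 and 2095. Rab7, the late endosome GTPase, had IDR rank 4596 with ranks 8965 and 2114 in replicates 2 and 3, which is the widest gap between those replicates at any of the 12 Rab genes. Rab11, which marks recycling endosomes and is needed for membrane growth when the embryo becomes cellular, had IDR rank 4736 and replicate ranks 4467, 8488 and 5355. Rab6, a Golgi GTPase, had IDR rank 5050 and replicate ranks 3381, 6386 and 5978. Rab21, with IDR rank 5846 and replicate ranks 9229, 6707 and 5653, was the weakest Rab gene in the IDR list.

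Among the Vps genes, Vps15, the regulatory subunit of the class III phosphatidylinositol 3-kinase, followed Vps33B with IDR rank 1151 and replicate ranks 1827, 1394 and 732. Vps52, a subunit of the GARP and EARP tethers, had IDR rank 2010 with ranks 2167 and 2745 in replicates 2 and 3 and no summit in replicate 1. Vps45, a Sec1/Munc18-type protein of endosomal fusion, had IDR rank 2308 and replicate ranks 2099, 3015 and 2180. The 3 ESCRT-III genes in the IDR list were Vps60, Vps20 and Vps24, whose products build the filaments that pinch vesicles into the endosome. Vps60 had IDR rank 2427 (replicates 3223, 4543 and 1354), Vps20 had rank 3079 (2967, 3838 and 3035) and Vps24 had rank 5920 (3237, 8565 and 8413). The retromer subunit gene Vps29 had IDR rank 5713 and replicate ranks 12785, 7376 and 3558, and the CORVET subunit gene Vps8 had IDR rank 6208 and replicate ranks 6647, 7626 and 5656. Vps29 and Vps8 were thus near the end of the IDR list.

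Of the 21 genes, 18 had a summit in every full replicate list. In the strongest 6458 peaks, 11 were found in all 3 replicates, 5 in 2 and 5 in 1. The 11 were 6 of the 33 Rab genes (Rab5, Rab6, Rab8, Rab23, Rab30 and Rab39) and 5 of the 27 Vps genes (Vps15, Vps20, Vps33B, Vps45 and Vps60), against 17.2% of all protein-coding genes. That share is 2398 genes, whether or not they had an IDR summit, and 3728 protein-coding genes had one. How many of the 3728 were found in all replicates was not computed, so the counts among the 21 have no like share beside them. The median IDR rank was 3289 over the 12 Rab genes and 2427 over the 9 Vps genes, against 2776 over all protein-coding genes with an IDR summit.

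No difference between the Rab and Vps families in how often a promoter held a summit could be shown with 3 replicates. In the strongest 6458 peaks, 8, 9 and 14 Rab genes had a promoter summit in replicates 1, 2 and 3 (31.3% ± 9.74, SD, n = 3), and 9, 10 and 12 Vps genes did (38.3% ± 5.66). The same share over all protein-coding genes was 23.8%, 26.5% and 29.5%, with a mean of 26.6% ± 2.86. Replicate 3 gave the highest share in both families, as it did over all genes. The Rab share minus the Vps share was -9.09, -9.76 and -2.02 percentage points in replicates 1, 2 and 3, with a mean of -6.96 ± 4.29 (exact two-sided sign-flip permutation test over n = 3 replicates, p = 0.25). A p of 0.25 is the smallest this design allows, so no difference over replicates could reach 0.05. In the IDR list the difference had the other sign, at 3.03 points. Its mean over replicates was also positive without the 7 duplicated Rab genes, at 1.47 ± 6.87 points with 1 of 3 replicates above 0 (exact sign-flip permutation p = 1), when 12 of 26 Rab genes (46.2%) had an IDR summit.

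**Figure D2:**
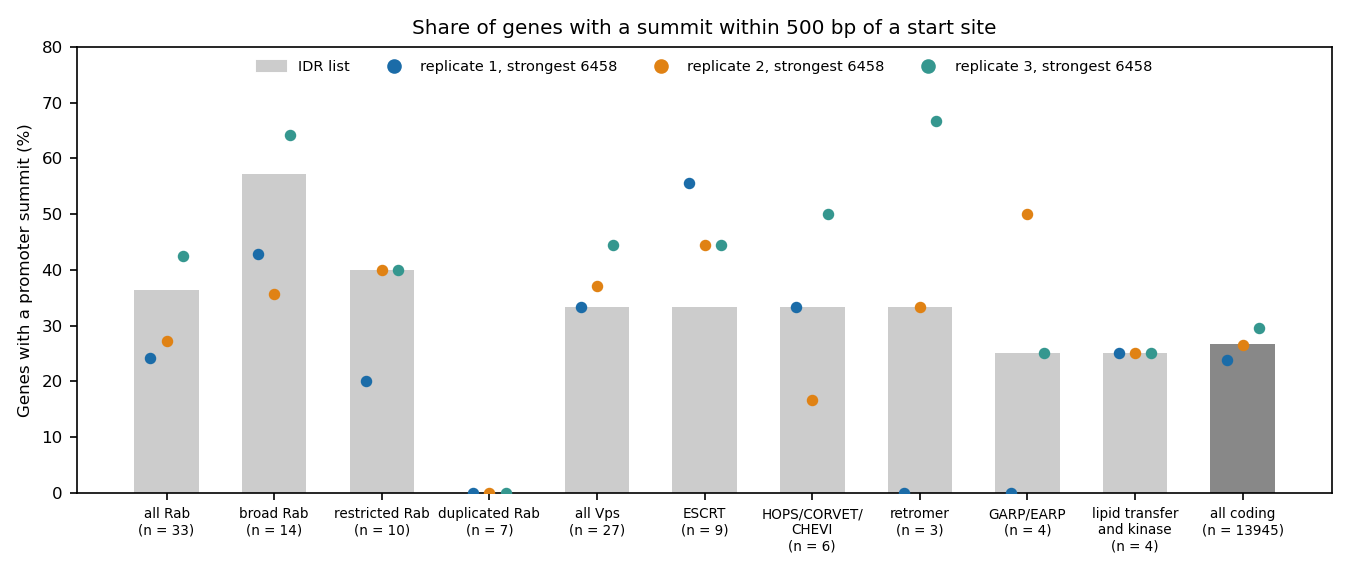
Share of genes (%) with a summit within 500 bp of a start site, for Rab groups, Vps complexes and, at the right, all coding genes; bars are the IDR list and points the strongest 6458 peaks of each replicate. The replicate points of small complexes range widely, and the 7 duplicated Rab genes are at 0 throughout.

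Among Rab genes, those known from the general literature to act in most cells were set against those known mainly from particular tissues. Rab9, Rab40 and the 7 duplicated genes were in neither group, and none of them had an IDR summit. The groups were not matched for promoter layout, which is described below. No expression was measured here. Of 14 broadly acting Rabs, 8 had an IDR summit (57.1%): Rab2, Rab5, Rab6, Rab7, Rab8, Rab11, Rab21 and Rab39. Of 10 tissue-restricted Rabs, 4 did (40%): Rab19, Rab23, Rab30 and Rab32. The share over all protein-coding genes was 26.7%. In the strongest 6458 peaks of replicates 1, 2 and 3, the broad group had 6, 5 and 9 genes and the restricted group 2, 4 and 4. The difference was 22.9, -4.29 and 24.3 points, with a mean of 14.3 ± 16.1 that is smaller than its spread and of mixed sign (exact two-sided sign-flip permutation test, n = 3, p = 0.5). The neuronal vesicle GTPase genes Rab3, Rab26 and Rab27 and the gene RabX6 had only weaker peaks outside the IDR list, and RabX1 and RabX4 had none.

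The 7 duplicated genes, Rab9D, Rab9Db, Rab9E, Rab9Fa, Rab9Fb, RabX2 and RabX5, had no summit within 500 bp in any of the 5 lists, and Rab9 had only a peak of rank 22855 in replicate 2. Over all protein-coding genes, 36.3% had no summit in any list. Of the 7 duplicated genes, 6 lie on the X chromosome. Near-identical copies can lose reads that map to several places, and how the authors treated such reads is not given in the sources used here. How alike the 7 genes are in sequence was not measured, and RabX5 lies apart from the others on 3L. The part of mapping in these empty promoters was not tested. On the X chromosome, 2 of 15 members (Rab39 and Rab21) had an IDR summit, against 23.5% of all protein-coding genes on X. The 15 include the 6 duplicated genes on X, which had no summit in any list and so lower this share. On the other arms, 19 of 45 members had an IDR summit, against 26.7% of all protein-coding genes over all 6 arms. The split between X and the other arms was not tested.

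Vps genes were spread over the complexes without a clear order. An IDR summit was present at 3 of 9 ESCRT genes, 2 of 6 HOPS, CORVET and CHEVI genes, 1 of 3 retromer genes, 1 of 4 GARP or EARP genes and 1 of 4 genes of the Vps13 lipid transfer proteins and the class III kinase, against 26.7% of all protein-coding genes. In the IDR list these shares, between 25% and 33.3%, lie near that of all genes. With these numbers, 1 gene moves a group's share by more than 10 points. In the strongest 6458 peaks, the ESCRT genes had 5, 4 and 4 promoters with a summit in replicates 1, 2 and 3. That is 55.6%, 44.4% and 44.4%, above the 23.8%, 26.5% and 29.5% of all protein-coding genes. The retromer genes had 0, 1 and 2 (0%, 33.3% and 66.7%) and the GARP or EARP genes 0, 2 and 1 (0%, 50% and 25%).

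In all, 14 members had a summit in the pooled list that was not strong enough for the IDR list. With those of the IDR list, 22 of 33 Rab genes and 13 of 27 Vps genes had a pooled summit, against 47.9% of all protein-coding genes. The 10 Rab genes among the 14 were Rab1, Rab3, Rab10, Rab14, Rab18, Rab26, Rab27, Rab35, Rab40 and RabX6, and the 4 Vps genes were Vps2, Vps4, Vps37B and Vps39. Rab1, the GTPase of transport from the endoplasmic reticulum to the Golgi, had pooled rank 11122 and replicate ranks 20213, 9899 and 12217. Rab14 was the strongest of the 14, with pooled rank 7466 and ranks 24375, 15730 and 4666 in the replicates. Its pooled summit (14356969) and the strongest summits of replicates 2 and 3 lay by an internal start. The only Rab14 summit of replicate 1 lay by the outermost start, at 14355140, so that rank belongs to another peak. Rab10, which acts in basement membrane secretion in the fly ovary, had pooled rank 14766 and replicate ranks 5807, 8128 and 12869. Vps4, the ATPase that takes ESCRT-III filaments apart, had pooled rank 11244 and replicate ranks 17805, 7891 and 10763. These 4 genes each had a promoter summit in the full lists of all replicates, mostly beyond rank 6458. At Rab14 these summits were not all at the same start.

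Vps39, a HOPS subunit gene, did not follow that pattern. Its ranks were 4877, 6762 and 5239 in replicates 1, 2 and 3, close to those of genes in the IDR list, while its strongest pooled summit had rank 24077. Its summits lay at offsets of 13, -85 and -199 bp from the TSS in the replicates and at -286 bp in the pooled list.

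A further 12 members had a summit in replicate lists but none within 500 bp in the pooled list, of which 10 were Vps genes (Vps11, Vps16A, Vps25, Vps26, Vps28, Vps35, Vps36, Vps50, Vps51 and Vps53) and 2 were Rab genes (Rab4 and Rab9). In all, 15.8% of protein-coding genes were in that state. In 3 of them the peak was among the strongest 6458 of 2 replicates, a state found in 1.35% of all protein-coding genes. Vps36, an ESCRT-II subunit gene, had rank 1486 in replicate 1 and rank 1837 in replicate 3, with summits at -123 and -111 bp, and no summit in replicate 2, while the nearest pooled summit was 7333 bp away. Vps28, of ESCRT-I, had ranks 5043 and 3628 in replicates 2 and 3, and Vps35, of the retromer, had ranks 5408 and 6196 in the same replicates. All 3 genes were missing from the full list of 1 replicate. How the pooled peaks were called is not given in the sources used here, and why these peaks are not among them was not tested.

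No summit in any list was found at 13 of 60 members, against 36.3% of all protein-coding genes. These were the 7 duplicated genes, RabX1 and RabX4, the lipid transfer genes Vps13, Vps13B and Vps13D, and Vps16B, which encodes the partner of Vps33B in the CHEVI tether. The strongest member peak and an empty promoter were thus found in genes for 2 subunits of 1 complex.

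Summit positions at Rab and Vps genes are given as a description, with no test. The median distance to the TSS was 66 bp over the 12 Rab genes and 146 bp over the 9 Vps genes, against 131 bp over all protein-coding genes with an IDR summit. Within 250 bp lay 10 of 12 Rab and 9 of 9 Vps summits, against 2999 of 3728 over all such genes. The pair of member summits beyond that distance were those of Rab23 and Rab39. The median signed offset was -34 bp over the 12 Rab genes and -146 bp over the 9 Vps genes, where a negative value is upstream, against -123 bp over all such genes. The summit was upstream of the TSS at 7 of 12 Rab genes and 8 of 9 Vps genes, against 85.5% of all such genes. Over all 21 members, the annotation placed 13 of the strongest summits in intergenic sequence, 7 in a 5′ UTR and 1 in an intron. Summit positions repeated closely at Rab5, where the 3 replicates spanned 17 bp, and at Rab32 (22 bp), Vps15 (26 bp) and Rab30 (26 bp). They spanned 190 bp at Rab11 and 199 bp at Vps8. Each replicate value is that list's strongest summit within 500 bp, so a span can also join different peaks. At Rab11, replicates 1 and 2 were at -135 and -143 bp, beside the IDR summit at -141 bp, and replicate 3 was at 47 bp. Whether these spans reflect precision or different peaks was not tested. The member farthest from its summit was Rab23 at 332 bp. The nearest genes outside the window of 500 bp were Rab14, with an IDR summit 602 bp away, and Rab26, at 687 bp.

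**Figure D3:**
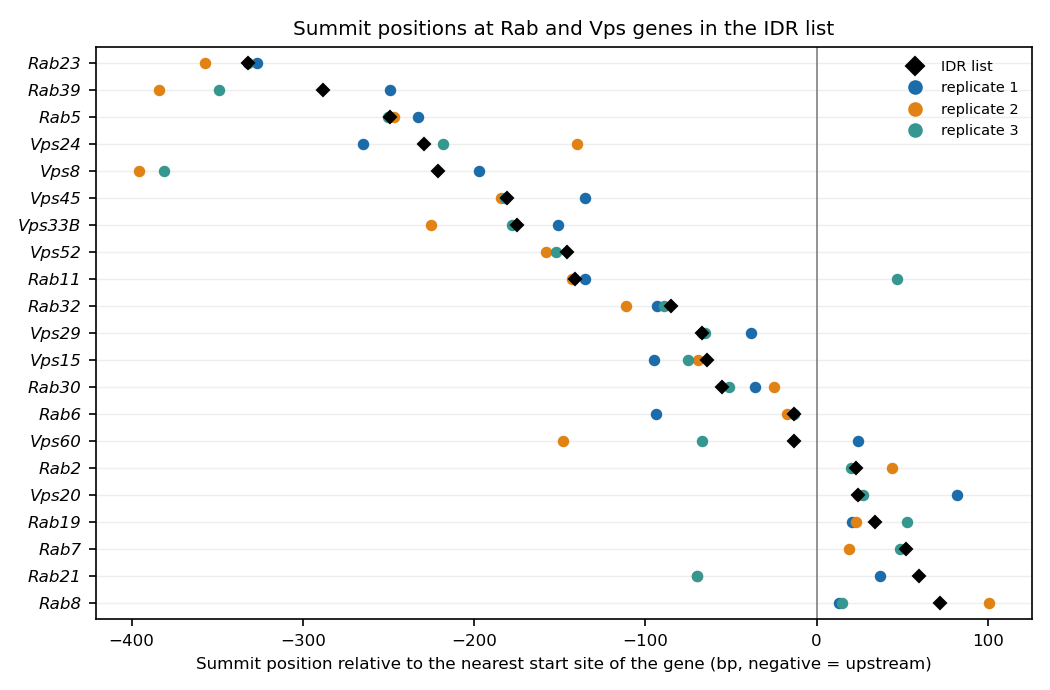
Position of the strongest summit relative to the nearest start site (bp, negative = upstream) at the 21 members in the IDR list, ordered by position; diamonds are the IDR list and coloured points the replicates. Rab5, Rab32, Vps15 and Rab30 have replicate points within 26 bp, while Rab11, Vps8 and Vps60 are spread over 172 to 199 bp.

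Promoter layout gave a split among the members that had the same sign in all 3 replicates. A promoter was called divergent where the TSS of another protein-coding gene lay within 500 bp upstream on the opposite strand, and one-strand otherwise. Each class held 30 members, while 27.4% of all protein-coding genes were divergent. Of the divergent members, 15 had an IDR summit (50%), and of the one-strand members 6 did (20%). The same shares were 49% over all divergent and 18.3% over all one-strand protein-coding genes, so in each class the members were close to the share of all genes. In the strongest 6458 peaks of replicates 1, 2 and 3, the divergent share exceeded the one-strand share of members by 23.3, 16.7 and 40.0 points, with a mean of 26.7 ± 12.0 (exact two-sided sign-flip permutation test, n = 3, p = 0.25). Over all protein-coding genes the difference was 27.6, 31.3 and 34.9 points, with a mean of 31.2 ± 3.67.

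In the IDR list the split was wider among the Rab genes than among the Vps genes, and whether it differs between the families was not tested. Of 15 divergent Rab genes, 9 had an IDR summit (60%), against 3 of 18 one-strand Rab genes (16.7%): Rab11, Rab19 and Rab32. The Rab difference over replicates was 44.4 ± 10.9 points and positive in all 3 (exact sign-flip permutation test, n = 3, p = 0.25). Of 15 divergent Vps genes, 6 had an IDR summit (40%), against 3 of 12 one-strand Vps genes (25%): Vps15, Vps20 and Vps24. The Vps difference over replicates was 3.89 ± 14.6 points and of mixed sign (exact sign-flip permutation test, n = 3, p = 1). All 7 duplicated genes have one-strand promoters, and without them 3 of 11 one-strand Rab genes (27.3%) had an IDR summit and the difference over members was 20.2 ± 11.8 points.

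**Figure D4:**
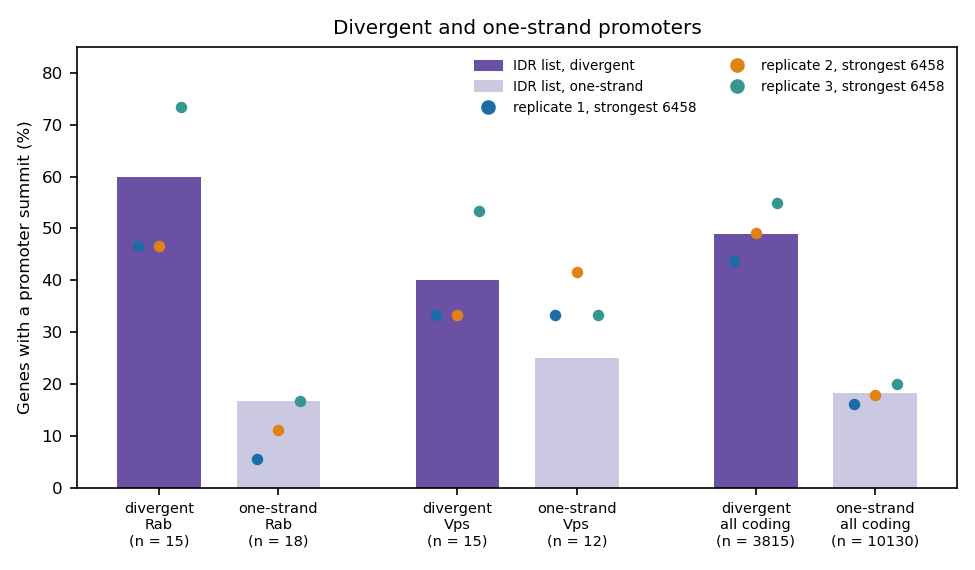
Share of genes (%) with a promoter summit, divergent promoters beside one-strand promoters, for Rab genes, Vps genes and all coding genes; bars are the IDR list and points the strongest 6458 peaks of each replicate. Divergent Rab genes lie above one-strand Rab genes in every replicate, while the Vps points overlap.

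At a shared promoter a summit cannot be assigned to 1 gene of the pair, and 15 of the 21 members had another coding TSS within 500 bp of their strongest summit. They include the one-strand member Vps24, with a start of Suv3 within 500 bp of its summit, and leave out the divergent member Rab5. The same share over all genes with an IDR summit was not computed. At the 15 divergent members with an IDR summit, the summit was nearer to the member in 9 and to its partner in 6, and it lay between the starts of the pair in 9. The partner was nearer at Rab23 (plx), Rab39 (Pdp), Vps8 (sfl), Vps29 (Tfb4), Vps45 (CG9393) and Vps52 (Elp4). At Rab39 the summit was 16 bp from the start of Pdp and 288 bp from that of Rab39. At Rab23 it was 89 bp from the start of plx, which encodes a protein with the TBC domain of Rab GTPase-activating proteins, and 332 bp from that of Rab23. The member was nearer at Rab2 (Mob4), Rab5 (Axud1), Rab6 (Phae1), Rab7 (Epp), Rab8 (Usp32), Rab21 (Coa7), Rab30 (Caper), Vps33B (Fur1) and Vps60 (anchor). For Rab5 the summit counted was the one of rank 500 by an internal start, 1592 bp from the start of Axud1. It thus lay outside the shared promoter, where the Rab5 summit of rank 3763 lay. The median distance between the paired starts was 199 bp where there was an IDR summit and 219 bp where there was none, against 261 and 225 bp over all divergent protein-coding genes.

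The share with a summit was also higher among members with more start sites. Of 11 members with more than 1 TSS, 8 had an IDR summit (72.7%), against 13 of 49 with 1 TSS (26.5%). Over all protein-coding genes these shares were 42.3% and 21.1%. When only the outermost start of each gene was used, the counts were again 12 Rab and 9 Vps genes. The part of the number of start sites in the result was not tested further.

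The DRE was common in the promoters of these genes. Within 250 bp upstream to 50 bp downstream of the outermost TSS, the word TATCGATA was present in 11 of 33 Rab genes (33.3%) and 6 of 27 Vps genes (22.2%), against 9.36% of all protein-coding genes. It was present in 12 of 30 divergent members (40%), against 17.4% of all divergent protein-coding genes, and in 5 of 30 one-strand members (16.7%), against 6.32% of all one-strand genes. Within 100 bp of the IDR summit, it was found at 7 of the 21 members (33.3%), against 271 of 2700 such windows at all protein-coding promoters. Those 7 were Rab2, Rab6, Rab7, Rab8, Rab19, Rab30 and Vps15, and the printed stretches of Rab30, Rab6 and Vps15 show the word in full. An IDR summit was present at 7 of the 17 members with the word in the promoter and 14 of the 43 without it, against 45.6% of all protein-coding genes with the word and 24.8% of those without it. By family, 6 of 11 Rab genes with the word and 6 of 22 without it had a summit, while 1 of 6 Vps genes with it and 8 of 21 without it did. The families were not tested against each other in this. The 10 members with the word and no IDR summit included Rab14, Rab27, Rab35, Vps36 and Vps39.

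The shorter word CGATA was found within 100 bp of the summit at 15 of the 21 members (71.4%), against 43.0% of all such windows, and 7 of these 15 are the windows that hold it inside a DRE. TATAAA was found at 8 (38.1%), against 35.6%, GGTCACA at 1 (Rab6), against 9.15%, and CACGTG at 1 (Rab5), against 2.15%. The summit windows of the members had a median of 36.8% G and C, against 35.3% over all windows. Neither Vps20 nor Rab23 nor Rab39 held any of these 5 words near its summit.

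Other genes of the same pathways, named differently in flies, were read from lists chosen by function. Of these 45 genes, 20 had an IDR summit (44.4%), against 26.7% of all protein-coding genes. They were 8 of 16 genes that control or bind Rabs, 7 of 10 ESCRT genes, 3 of 9 tether and kinase genes and 2 of 10 retromer and WASH complex genes. The 20 include plx, whose peak at IDR rank 3330 is the one already counted for Rab23. The strongest was CHMP2B, an ESCRT-III gene, at IDR rank 96 and ranks 63, 101 and 133 in the replicates, which is above Vps33B. The gene scat, which encodes the GARP subunit Vps54, had IDR rank 590 and replicate ranks 309, 4958 and 828. Among genes that act on the GTPases, Rabex-5, which encodes the Rab5 exchange factor, had no summit in any list, and Gdi and Rep, whose products bind and escort Rab proteins, had none in the IDR list. Rbsn-5, which encodes the Rab5 effector Rabenosyn, had IDR rank 742 and replicate ranks 770, 982 and 598. The subunit genes of the Rab7 exchange factor, Mon1 (IDR rank 814, replicates 673, 1260 and 685) and Ccz1 (IDR rank 1545, replicates 2191, 1275 and 1853), ranked above Rab7 in replicates 2 and 3, and Rab7 had no summit in replicate 1. Uvrag, a subunit of a class III kinase complex with Vps15, had IDR rank 825 and replicate ranks 659, 1120 and 910. Of the regulators whose symbols match the pattern, Rab3GAP1 had IDR rank 1205 and replicate ranks 1344, 1304 and 1342, and Rab3-GAP had IDR rank 4550 with ranks 10741 and 2293 in replicates 2 and 3. Rab3-GEF and Rab3 itself had only weaker peaks, outside the IDR list.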

How the data were processed

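The members, lists, words and tests used here were chosen with earlier results of these data known. The authors deposited 5 peak lists whose signal column, not scaled between lists, holds their peak caller's value. Which aligner and caller were run is not given in the sources used here. Per the labels, positions are on dm6 and chromatin was sonicated to 200 to 800 bp.

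Peaks were ranked by signal within each list. A gene was counted where a summit lay within 500 bp of any TSS of Ensembl release 115 (BDGP6 version 6.54), on 6 arms. Read depth is unknown. Shares in the 3 replicate lists, by their strongest 6458 peaks, were compared by exact two-sided sign-flip permutation tests. Intervals are exact (Clopper-Pearson). Every member in the IDR list was named, then members of the pooled list only, those in no list, and partners of divergent promoters. Members in replicate lists only, the 3 just named and the pathway genes given with ranks were picked after their values were seen. Python 3.11.15, numpy 2.4.6, scipy 1.17.1 and matplotlib 3.10.9 were used. Tested on simulated data, 200 of 200 planted summits were handled as planted. Those within 500 bp of a TSS were assigned to their gene, and those just beyond it were left unassigned. Alternatives changed the window, the peaks used, the TSS set, the head-to-head distance and the replicates kept.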

Additional observations from a re-analysis of the deposited data

How the results depend on the processing

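Of 51 alternatives, 40 kept each count within 1.5 times its reported value and each difference in its direction. The count of Rab genes with an IDR promoter summit, reported as 12, was 4 when the stronger 3229 peaks alone were used. When 1 replicate was left out, and an IDR peak had to overlap a peak among the strongest 6458 of both others by 50% of each, there were 5 to 7 Rab genes and 4 Vps genes in each case, against 9 reported. With every peak of the replicate lists in place of the strongest 6458, the mean count was 20.7 Rab genes, against 10.3, and 17 Vps genes, against 10.3. The Rab share minus the Vps share turned positive with a window of 1000 bp, at 1.12 points, and without the duplicated Rab genes, an alternative added after the data were seen, at 1.47 points. The cause was not tested. Over the alternatives, the broad minus restricted difference ranged between 7.14 and 23.8 points and the divergent minus one-strand difference between 16.3 and 31.7 points. No paired analysis was possible because there is 1 group. With 3 replicates and no read counts, neither group differences nor absent peaks can be settled by these lists.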
